A study of Mus musculus with 9 samples.

Results

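The genes described here encode the factors that start protein synthesis and lengthen the chain, the eukaryotic initiation factors (eIF) and elongation factors (eEF). They were taken as the gene rows whose symbols begin with Eif1 to Eif6, Eef1 or Eef2, leaving out Eif2s3y, Eef2k, Eef2kmt and the symbols beginning Eif2ak. The rule gave 57 of 32531 gene rows and used no measured value. The RNA was from cerebral cortex; the mice were adult, had no treatment, belonged to the line Abcb1a-TRAP ES3026 and carried the transgene Abcb1a-EGFP/Rpl10a. In this line the regulatory sequence of Abcb1a, an efflux pump gene of brain endothelium, drives a ribosomal protein fused to a green fluorescent protein, so that antibodies can pull down the tagged ribosomes together with their mRNA (translating ribosome affinity purification, TRAP). The 9 libraries formed 3 groups of 3: ribosome-bound RNA immunopurified (IP) by investigator ES, the same fraction by investigator JL, and total input RNA extracted by JL. All 3 groups carry the transgene, and no mice without it and no ES input entered the comparisons. The labels give neither sex nor exact age and name no animal for any library, so the p-values cover only the spread among these libraries, which may be in part technical.

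Protein synthesis begins when eIF2 carries the initiator tRNA to the small ribosomal subunit and eIF4E, bound to the scaffold eIF4G and the helicase eIF4A, recruits the capped mRNA. eIF3 holds this assembly together, eIF1, eIF1A and eIF5 select the start codon, and eIF5B joins the large subunit. eEF1A then delivers aminoacyl-tRNA, and eEF2 moves the ribosome along. The pathway is throttled mainly through phosphorylation of eIF2, which blocks its exchange factor eIF2B, and through 4E-binding proteins, which hold eIF4E when mTORC1 is inactive. Several factors exist as pairs of paralogs used to different extents by different tissues; eEF1A2 is known as the isoform of mature neurons and muscle, and eEF1A1 as that of most other cells.

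The results turn on 3 such pairs, and the coding sequences show how reads of the paralogs can be told apart. Each line gives 60 bases of coding sequence, 5′ to 3′, from the GENCODE M21 transcript of the gene (mm10), with the bases that differ between the paralogs in capitals. For Eef1a2 (chr2:181147653-181157014, minus strand) and Eef1a1 (chr9:78478449-78489151, minus strand) these are coding bases 1 to 60.

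Eef1a2: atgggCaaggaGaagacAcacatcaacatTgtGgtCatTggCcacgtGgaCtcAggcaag
Eef1a1: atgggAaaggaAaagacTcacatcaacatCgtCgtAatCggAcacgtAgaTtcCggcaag

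Over the coding parts as a whole, 80.13% of aligned bases were identical, and 11 of the 60 bases shown differ. For the helicase genes Eif4a2 (chr16:23107444-23114136, plus strand, coding bases 40 to 99) and Eif4a1 (chr11:69666936-69672423, minus strand, coding bases 37 to 96) the identity was 77.72%.

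Eif4a2: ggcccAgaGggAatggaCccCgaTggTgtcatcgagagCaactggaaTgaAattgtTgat
Eif4a1: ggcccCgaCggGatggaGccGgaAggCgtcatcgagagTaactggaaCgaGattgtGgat

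For Eif5a2 (chr3:28781276-28798846, plus strand) and Eif5a (chr11:69916714-69921958, minus strand), coding bases 1 to 60 are shown, and the identity was 73.16%, with 17 of the 60 bases differing.

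Eif5a2: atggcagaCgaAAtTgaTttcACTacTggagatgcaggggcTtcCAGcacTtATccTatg
Eif5a: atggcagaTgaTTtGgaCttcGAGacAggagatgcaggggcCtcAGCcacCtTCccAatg

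The libraries held 41518263 to 46199700 gene counts in ES IPs, 31987470 to 37813545 in JL IPs and 42723147 to 46598478 in JL inputs. The labelled cell type was checked with 19 endothelial markers, none of which was at 0 in any library. Their summed level was 2157, 1571 and 1269 CPM (counts scaled to a common library size) in ES IPs, 12300, 11760 and 12160 CPM in JL IPs, and 81.7, 85.7 and 76.8 CPM in JL inputs. Summed over 15 neuron markers, none at 0, the level was 19200 to 21410 CPM in ES IPs, 2336 to 3148 CPM in JL IPs and 18020 to 18840 CPM in JL inputs. Snap25 alone held 50.04 to 63.3% of this sum, and the other 14 markers summed to 7220, 10010 and 8694 CPM in ES IPs, 1083 to 1572 CPM in JL IPs and 7773 to 7963 CPM in JL inputs, so that ES IP replicate 1 lay below all inputs and the other ES IPs above them. Astrocyte markers (8 genes) summed to 1332 to 1842 CPM in ES IPs, 324.4 to 475.4 CPM in JL IPs and 2209 to 2382 CPM in JL inputs, and oligodendrocyte markers (7 genes) to 1040 to 1226 CPM, 316 to 467.3 CPM and 2299 to 2684 CPM in the same order. The part of these differences in the results was not tested. The Y-linked gene Eif2s3y was counted in every ES IP but, among the JL libraries, only in replicate 1 of each group. As read from this gene, the sets also differed in sex make-up, whose part in the results was not tested. All 3 ES IPs share a sequencing lane, lane 6, so lane, investigator and group cannot be told apart for them. Nor can fewer cells of a type be told apart from less RNA per cell in such bulk samples.

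Levels are CPM scaled with TMM factors over all 9 libraries; fold changes are log2 values with their standard error, from edgeR's quasi-likelihood test, and a gene was called at an adjusted p under 0.05 over all genes tested. Summed over the 57 factors, the level was 8102, 7439 and 6828 CPM in ES IPs, 9401, 9190 and 9187 CPM in JL IPs, and 6182, 5981 and 6083 CPM in JL inputs. Eif4g2 alone held 33.0 to 34.0% of this sum in JL IPs, against 13.2 to 16.4% in ES IPs and 20.1 to 21.1% in JL inputs. Without Eif4g2 the sum was 5711 to 7034 CPM in ES IPs, 6065 to 6302 CPM in JL IPs and 4736 to 4939 CPM in JL inputs. The IP groups thus overlapped in the sum of the other 56 factors, and each lay above the inputs; Eif4g2 was left out after the values were seen.

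**Figure D1:**
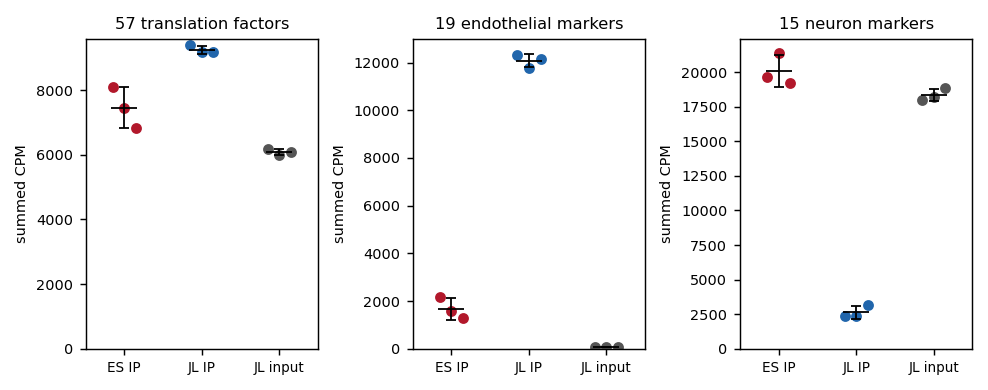
Summed level (CPM, linear axes from 0) of the 57 translation factors, of 19 endothelial markers and of 15 neuron markers in each library; points are libraries and bars the mean ± SD of 3. The translation factors stand at 9187 to 9401 CPM in JL IPs, of which Eif4g2 alone is 33.0 to 34.0%, and the neuron markers are low in JL IPs.

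In all, 2 members fell below the filter on low counts in all 3 comparisons and were not tested, which left 55. Eif4ebp3, a further 4E-binding protein gene, had no count in any of the 6 IP libraries and 9, 4 and 3 counts in JL inputs. A library's limit for a count of 0, taken as 3 counts, was 0.0649 to 0.0938 CPM in the IPs, which is the level that counting error alone allows. Eif4e1b, an oocyte-type relative of eIF4E, had 1 count in all, in ES IP replicate 2.

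To set genes side by side, CPM were divided by the length in kilobases of a GENCODE M21 transcript of each gene. On that scale, Eif4g2, which encodes an eIF4G relative without the eIF4E-binding region, was the highest factor in JL IPs, at 389.4 ± 1.63 CPM per kb (SD, n = 3). It averaged 136.1 ± 3.21 CPM per kb in ES IPs and 157.1 ± 2.63 in JL inputs. Eif4a2 ranked first in ES IPs and in JL inputs, at 234.3 ± 22.7 and 245.8 ± 8.50 CPM per kb, and ranked 12 in JL IPs at 100.2 ± 1.30. These ranks depend on the transcript lengths used, 7995 bases for Eif4g2 and 2208 bases for Eif4a2. Before division by length, Eif4g2 was the highest factor in every group. It averaged 1088 CPM against 517.3 for Eif4a2 in ES IPs, and 1256 against 542.8 CPM in JL inputs. Eef1a1 ranked 2 in ES IPs, 2 in JL IPs and 3 in JL inputs, and Eef2 ranked 3, 5 and 4. In the ES IPs the per-kilobase levels of Eif4a2 and Eef1a1, 234.3 ± 22.7 and 231.0 ± 81.4, did not differ beyond their spread. Among the lowest were Eif4ebp1, Eif2s3x and Eif3j2, with ranks of 46 to 55 in every group.

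The first comparison sets ribosome-bound RNA of tagged cells against the total RNA of the cortex: JL IP over JL input. Most factors were moderately higher in JL IPs, and a smaller set was lower: Eef1a2, Eif5a2, Eif4a2, Eef1e1, Eif5b, Eif5 and Eif4e. Of the 55 tested, 34 were called higher, where 36.7% of all 17357 genes tested were, and 7 lower, where 37.4% of all genes were. The remaining 14 did not pass. As a share, 61.8% of the factors were called higher and 12.7% lower, and 74.5% were called in either direction beside 74.1% of all genes, so calls in either direction were about as frequent as among all genes. Their median log2 fold change was 0.58, against -0.09 over all genes. Scaling by upper quartile factors or library size alone shifts the median of all genes by -0.25 and -0.26 and gives 29 higher and 10 lower, and 28 higher and 10 lower, among the factors; such scaling moves all genes alike. The factors' median was 0.67 above that of all genes, 1.09 above it with no filter but 1 count and 0.48 above it with a filter at a mean of 1 CPM. In 45 of the 55 the groups did not overlap, beside 80.8% of all genes. Cytosolic ribosomal protein genes, the nearest class of translation genes, had 54 of 79 higher, 3 lower and a median of 0.97. JL IP and input libraries of the same number share lane 4, 2 or 3, and within those lanes the factors' median log2 ratio of CPM + 0.5 was 0.54, 0.52 and 0.50.

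**Figure D2:**
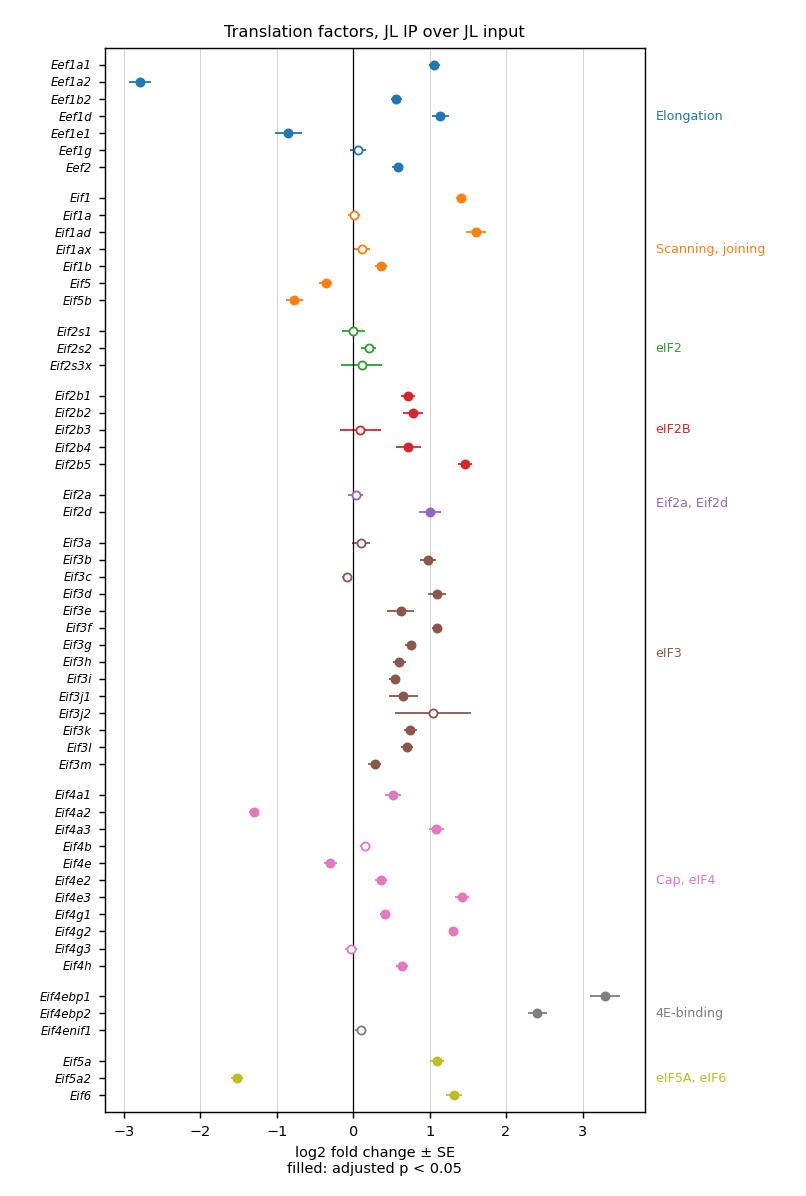
Log2 fold change of each tested factor in JL IP over JL input, with its standard error (edgeR, 3 libraries a group), arranged by role; filled points have an adjusted p under 0.05. Most points lie between 0 and 1.5, with Eif4ebp1 and Eif4ebp2 at 3.30 and 2.41 and Eef1a2, Eif5a2 and Eif4a2 at -2.79, -1.52 and -1.29.

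Counts by role, here and below, stand beside the 36.7% of all tested genes called higher and the 37.4% called lower. A count near these shares sets no role apart from all genes. Among the 7 elongation genes 4 were called higher and 2 lower. Eef1a1 had 578, 530.1 and 528 CPM in JL IPs, against 275, 251 and 259 CPM in JL inputs. Its paralog Eef1a2 had 17.05, 18.1 and 23.6 CPM in JL IPs, against 124, 151 and 132 CPM in JL inputs. The paralogs thus lay on opposite sides: Eef1a1 was higher by 1.06 ± 0.07 (adjusted p = 1.92e-06) and Eef1a2 fell by 2.79 ± 0.14 (adjusted p = 2.71e-07), with no overlap between the groups in either gene. Eef2, the translocase, had 551, 497 and 516 CPM in JL IPs and 370.1, 335 and 342 CPM in JL inputs, with a log2 fold change of 0.58 ± 0.07. The exchange factor of eEF1A, eEF1B, has subunits encoded by Eef1d, Eef1b2 and Eef1g, and 2 of these 3 passed. Eef1d was higher by 1.14 ± 0.11 and Eef1b2 by 0.56 ± 0.07, a call that ends with all 9 libraries in 1 fit (adjusted p = 0.0843), whereas Eef1g, at 0.06 ± 0.10, did not pass. Eef1e1, whose product is also a part of the multi-tRNA synthetase complex, fell by 0.85 ± 0.17, to 8.56, 7.92 and 11.4 CPM in JL IPs, against 18.3, 16.7 and 15.01 CPM in JL inputs.

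Of the 7 genes grouped under start codon selection and subunit joining, 3 were higher and 2 lower, beside 36.7 and 37.4% of all genes. Eif1ad was 1 of the 3. Eif1, a gatekeeper of start codon choice, had 212, 204 and 217 CPM in JL IPs, against 76.5, 81.6 and 79.6 CPM in JL inputs, with a log2 fold change of 1.41 ± 0.07. Eif1ad, named for its eIF1A-like domain, had the third highest fold change of all factors, 1.60 ± 0.13, at 65.0 ± 11.3 CPM in JL IPs and 21.4 ± 0.944 in JL inputs (SD, n = 3 each). Eif1b, a close paralog of Eif1, was higher by 0.36 ± 0.08; its call ends with upper quartile factors, library size alone or all 9 libraries in 1 fit, at adjusted p = 0.225, 0.281 and 0.158. Eif5, the GTPase activator of eIF2, fell by 0.36 ± 0.08, and Eif5b, the subunit-joining GTPase, fell by 0.77 ± 0.11, with 76.5, 98.4 and 75.5 CPM in JL IPs and 149, 146 and 134 CPM in JL inputs. Neither gene for eIF1A passed: Eif1ax stood at 0.11 ± 0.10 and Eif1a at 0.01 ± 0.08. Eif1a is called lower when factors are taken from the upper quartile or left out, at -0.24 and -0.25.

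None of the 3 genes of eIF2 itself passed in this or any other comparison. Eif2s1, the subunit whose phosphorylation limits initiation under stress, had 44.8, 55.6 and 36.2 CPM in JL IPs, against 44.3, 43.6 and 48.8 CPM in JL inputs, with a log2 fold change of 0.00 ± 0.15. Eif2s2 stood at 0.20 ± 0.09 (adjusted p = 0.0807); without JL IP replicate 1 it is called, at 0.27 with an adjusted p of 0.0188. Eif2s3x on the X chromosome stood at 0.11 ± 0.27. Its Y-linked copy Eif2s3y, which is outside the rule, differed between libraries within groups: it had 452, 407 and 436 counts in ES IPs, 601, 0 and 0 in JL IPs, and 729, 0 and 0 in JL inputs. Eif2s3x was lowest in the libraries of both JL groups that held Eif2s3y, at 4.69 CPM in JL IP replicate 1 and 4.10 CPM in input replicate 1, while the other JL libraries had 6.29 to 7.42 CPM. The ES IPs did not follow this pattern: all held Eif2s3y, and their Eif2s3x was at 6.91, 7.17 and 6.60 CPM. The exchange factor eIF2B had 4 of 5 subunit genes higher. The largest was Eif2b5, the catalytic subunit, with 68.4, 79.5 and 72.4 CPM in JL IPs, against 27.8, 26.7 and 25.3 CPM in JL inputs, with a log2 fold change of 1.47 ± 0.09. Eif2b1, Eif2b2 and Eif2b4 were higher by 0.72 to 0.78, and Eif2b3, at 0.09 ± 0.27, did not pass. Of the genes for factors that handle initiator tRNA outside the eIF2 route, Eif2d was higher by 1.01 ± 0.14 and Eif2a, at 0.03 ± 0.10, did not pass.

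The eIF3 complex is the largest group, with 11 of 14 genes higher, none lower and a median of 0.68; scaling by upper quartile factors or by library size alone makes Eif3c a lower call, at -0.33 and -0.34. Eif3f, at 174, 166 and 175 CPM in JL IPs against 81.7, 77.4 and 81.6 CPM in JL inputs, was higher by 1.10 ± 0.07, and Eif3d, whose product can itself bind some capped mRNAs, by 1.10 ± 0.12. Eif3b, a core scaffold subunit, was higher by 0.98 ± 0.10. The other called subunits, Eif3e, Eif3g, Eif3h, Eif3i, Eif3j1, Eif3k, Eif3l and Eif3m, lay between 0.28 and 0.75. Eif3a and Eif3c, large core subunits, were outside this pattern at 0.10 ± 0.12 and -0.08 ± 0.07, and neither passed. Eif3a had 146, 203 and 184 CPM in JL IPs, against 180.1, 161 and 156 CPM in JL inputs, so that JL IP replicate 1 lay below all inputs. Without that library Eif3a is called higher, at 0.23 with an adjusted p of 0.0464. The call of Eif3m ends without input replicate 2 or 3, at adjusted p = 0.0963 and 0.0679, and that of Eif3j1 without input replicate 2, at 0.0575. These 2 calls and that of Eif3e also end with upper quartile factors or library size alone.

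Of the genes for cap recognition and the eIF4 factors, 7 of 11 were higher and 2 lower. Eif4g2 had 3099, 3125 and 3117 CPM in JL IPs, against 1243, 1245 and 1280 CPM in JL inputs, with a log2 fold change of 1.31 ± 0.06. Of its relatives that do bind eIF4E, Eif4g1 was higher by 0.41 ± 0.06, a call that ends when counts are scaled by library size alone (0.16, adjusted p = 0.0626), and Eif4g3 stood at -0.03 ± 0.07 and did not pass, but is called lower with upper quartile factors or library size alone, at -0.28 and -0.29. Among the helicases, Eif4a2 had 219.6, 224.5 and 219.5 CPM in JL IPs, against 563, 526 and 539 CPM in JL inputs, and fell by 1.29 ± 0.06. Eif4a1 was on the other side, with 73.5, 58.2 and 66.6 CPM in JL IPs, against 44.0, 45.9 and 48.5 CPM in JL inputs, and was higher by 0.52 ± 0.10. Eif4a3, the paralog that serves the exon junction complex, was higher by 1.09 ± 0.09. The helicase cofactor Eif4h was higher by 0.64 ± 0.08, and Eif4b, at 0.16 ± 0.07 (adjusted p = 0.0570), did not pass, but is called with limma-voom (0.0315) and without JL IP replicate 2 or 3 (0.0420 and 0.0477).

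The cap-binding proteins themselves also differed. Eif4e, the main cap receptor of initiation, had 49.3, 57.8 and 57.8 CPM in JL IPs, against 68.6, 63.9 and 70.3 CPM in JL inputs, and fell by 0.30 ± 0.09 (adjusted p = 0.0150). The call is not held without input replicate 1 or 3, at adjusted p = 0.0533 and 0.0629, or with all 9 libraries in 1 fit, at 0.0843. Eif4e2, whose product binds the cap but represses translation, was higher by 0.37 ± 0.08, a call that ends with upper quartile factors or library size alone, at 0.12 and 0.11. Eif4e3, a further cap binder, was higher by 1.42 ± 0.09, with 82.6, 72.9 and 72.4 CPM in JL IPs, against 27.2, 28.8 and 29.4 CPM in JL inputs. The 4E-binding protein genes had the highest fold changes of all the factors. Eif4ebp1 had 19.3, 23.1 and 23.5 CPM in JL IPs, against 2.75, 1.90 and 2.04 CPM in JL inputs, with a log2 fold change of 3.30 ± 0.20 (adjusted p = 7.82e-07). Eif4ebp2 had 242, 197 and 207 CPM in JL IPs, against 35.3, 40.7 and 45.8 CPM in JL inputs, with a log2 fold change of 2.41 ± 0.12 (adjusted p = 3.05e-07). In both, every JL IP was several times above every input. Eif4enif1, the eIF4E transporter of processing bodies, stood at 0.10 ± 0.07 and did not pass.

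eIF5A, the hypusine-bearing factor that eases elongation and termination, is encoded by a pair that again split. Eif5a had 277, 238 and 253 CPM in JL IPs, against 118, 111 and 132 CPM in JL inputs, with a log2 fold change of 1.09 ± 0.09. Eif5a2 had 34.2, 33.9 and 33.3 CPM in JL IPs, against 103, 95.9 and 91.9 CPM in JL inputs, and fell by 1.52 ± 0.08. Eif6, which keeps the ribosomal subunits apart and acts in their assembly, was higher by 1.32 ± 0.10, at 61.7 ± 5.71 CPM in JL IPs and 24.7 ± 1.55 CPM in JL inputs (SD, n = 3 each). Beside all of these, all 15 neuron markers were called lower in JL IPs and all 19 endothelial markers higher. Of the astrocyte markers 7 of 8 were called lower and 1 higher, of the oligodendrocyte markers 7 of 7 lower, and of the microglia markers 6 of 7 lower; how much of a factor's difference goes with those shifts was not tested.

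**Figure D3:**
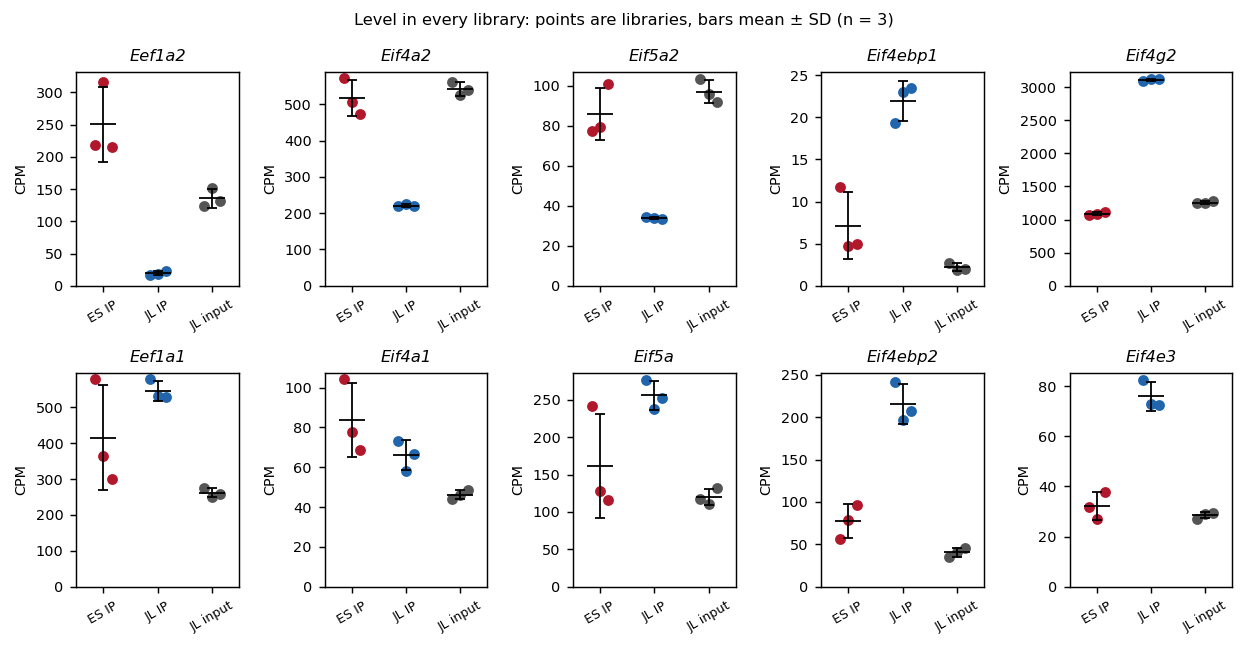
Level (CPM, linear axes from 0) of 5 paralog pairs or related genes in every library; points are libraries, bars the mean ± SD of 3 a group. Eef1a2, Eif4a2 and Eif5a2 are low in JL IPs and close to or above the inputs in ES IPs, while Eif4ebp1, Eif4ebp2, Eif4g2 and Eif4e3 are highest in JL IPs.

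The split within pairs was set out as the share of 1 paralog in the summed CPM per kilobase of both. Eef1a2 made up 24.5, 42.8 and 38.2% of its pair in ES IPs, 2.48, 2.86 and 3.71% in JL IPs and 27.9, 34.2 and 30.5% in JL inputs. Eif5a2 made up 14.5 ± 5.84% of its pair in ES IPs, 3.65 ± 0.251% in JL IPs and 18.8 ± 1.92% in JL inputs (SD, n = 3 each). In both pairs the JL IPs lay apart from the other groups, whereas ES IPs and inputs overlapped. Eif4a2 was the larger part of its pair throughout, at 83.4 ± 1.67% in ES IPs, 72.9 ± 2.52% in JL IPs and 90.4 ± 0.630% in JL inputs, and no groups overlapped. Eif4e2 made up 59.7 ± 0.516%, 72.2 ± 2.54% and 62.1 ± 1.08% of its sum with Eif4e in ES IPs, JL IPs and inputs. Eif4ebp1 made up 21.7 ± 13.7%, 22.9 ± 3.65% and 13.9 ± 3.88% of its sum with Eif4ebp2 in the same order, with ES IP replicate 1 far above the other ES IPs. With 3 libraries a group the 2-sided exact permutation test cannot go below p = 0.1. That value was reached for every JL IP against input share and for ES IP against JL IP in all pairs but Eif4ebp1 (exact p = 1). ES IP against input also reached it for Eif4a2 and Eif4e2, and gave exact p of 0.3 for Eif5a2 and 0.5 for Eef1a2 and Eif4ebp1. Adjusted over the 15 tests, the smallest p was 0.136, so no share difference could pass a threshold of 0.05 by this test.

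**Figure D4:**
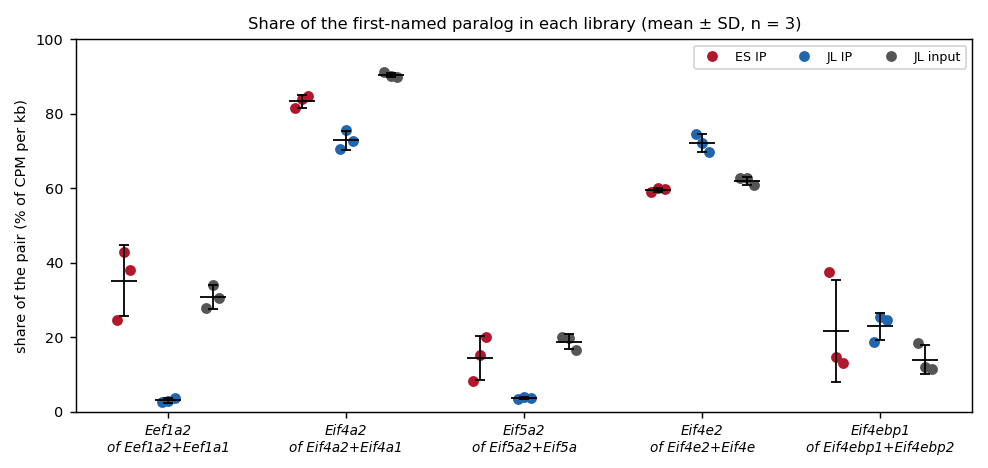
Share of the first-named gene in its pair (percent of CPM per kilobase, axis from 0 to 100) in each library; points are libraries, bars the mean ± SD of 3. Eef1a2 is 2.48 to 3.71% of its pair in JL IPs and 24.5 to 42.8% in ES IPs, and the ES IPs spread widely in the Eif4ebp1 pair.

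The second comparison sets IPs from the same line by different investigators against each other: ES IP over JL IP. The factors' median log2 fold change was 0.04, against 0.03 over all genes, and most did not pass. The factors' median moves with single libraries, to 0.17 without ES IP replicate 3 and to -0.13, with its sign turned, without ES IP replicate 1. Of the 55 tested, 12 were called higher in ES IPs, beside 29.7% of the 16212 genes tested, and 8 lower, beside 28.2%. Groups did not overlap in 25 factors, beside 65.9% of all genes. In either direction 36.4% of the factors were called, beside 57.9% of all genes. The count of lower calls moves with single libraries: it is 16 without ES IP replicate 1, and 5 without ES IP replicate 3, JL IP replicate 2 or JL IP replicate 3. The 12 higher calls become 7 without JL IP replicate 1. Replicates were set side by side by chi-square per degree of freedom, over genes with a mean of at least 20 counts in the group. It was 78.1 to 248 for ES IPs, 30.4 to 40.5 for JL IPs and 7.72 to 9.97 for JL inputs. Among the factors, ES IP replicate 1 was the highest of the 3 in 36 of the 55 factors and replicate 3 the lowest in 37, whereas over all genes replicate 1 was highest in 44.1% and lowest in 38.8%, and replicate 3 lowest in 34.7%. The surplus in replicate 1 was larger for short transcripts, with a Spearman rho of -0.63 between the log2 ratio and transcript length across the 55 factors (genes of the same libraries, given as a description). Between fold change and transcript length, rho over the same factors was 0.14 in ES IP over JL IP, -0.42 in ES IP over input and -0.31 in JL IP over input. Replicate 1 also had the highest share of ribosomal RNA precursor counts of the ES IPs, 12.03%, against 8.14% and 6.04%; the part of either in the results was not tested.

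Among the higher calls, the largest fold changes belonged to the paralogs that were low in JL IPs. Eef1a2 had 219, 317 and 215.5 CPM in ES IPs, against 17.05, 18.1 and 23.6 CPM in JL IPs, with a log2 fold change of 3.76 ± 0.23 (adjusted p = 7.29e-07). Eif5a2 had 77.1, 79.4 and 101 CPM in ES IPs, against 34.2, 33.9 and 33.3 CPM in JL IPs, and was higher by 1.43 ± 0.17. Eif4a2 had 572, 506 and 474 CPM in ES IPs, against 219.6, 224.5 and 219.5 CPM in JL IPs, and was higher by 1.31 ± 0.16. All ES IPs lay above all JL IPs in these 3 genes. Eif5b, Eef1e1 and Eif3e were also higher, by 1.18 ± 0.20, 1.13 ± 0.26 and 1.02 ± 0.21. For Eif3e, an eIF3 subunit gene, this put the ES IPs at 97.1, 83.4 and 74.6 CPM against 46.1, 54.1 and 32.2 CPM in JL IPs. Eif2b4, Eif4enif1, Eif3c, Eif4e, Eif5 and Eif2a were higher by 0.49 to 0.64, and each of these 6 calls ends without at least 1 library; for Eif4e the adjusted p of 0.0233 becomes 0.0964 without JL IP replicate 1 and 0.0527 without JL IP replicate 2.

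The 4 lower calls with the largest fold changes were Eif4ebp1, Eif4g2, Eif4ebp2 and Eif4e3. Eif4ebp1 had 11.7, 4.70 and 4.95 CPM in ES IPs, against 19.3, 23.1 and 23.5 CPM in JL IPs, and fell by 1.55 ± 0.33. Eif4ebp2 had 56.7, 79.0 and 96.3 CPM in ES IPs, against 242, 197 and 207 CPM in JL IPs, and fell by 1.39 ± 0.21. Eif4g2 had 1068, 1079 and 1117 CPM in ES IPs, against 3099, 3125 and 3117 CPM in JL IPs, and fell by 1.44 ± 0.16. In each of the 3 genes the groups were apart, and Eif4g2 hardly varied within either. Eif4e3 fell by 1.16 ± 0.18. Eif3j1, a loosely bound eIF3 subunit, fell by 0.83 ± 0.28, and Eif1a, Eif1 and Eif3l by 0.56, 0.54 and 0.40. These 4 calls are lost without single libraries; Eif3j1, at adjusted p = 0.0262, has 0.110 without ES IP replicate 2, 0.107 without ES IP replicate 3 and 0.0656 without JL IP replicate 3.

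Several central factors did not pass in this comparison. Eef2 stood at 0.04 ± 0.17, Eif2s1 at 0.17 ± 0.19, Eif2b5 at -0.21 ± 0.17, Eif4g1 at -0.04 ± 0.17 and Eif6 at 0.01 ± 0.21. Eef1a1 had 579, 364 and 300.3 CPM in ES IPs, against 578, 530.1 and 528 CPM in JL IPs, with a log2 fold change of -0.32 ± 0.23 with overlap in replicate 1. Without ES IP replicate 1 it is called lower, at -0.62 with an adjusted p of 0.00258. Eif5a stood at -0.59 ± 0.25 (adjusted p = 0.0680) and is called lower with DESeq2, limma-voom, the replicate block and all 9 libraries in 1 fit, at adjusted p of 0.0158 to 0.0370, and without ES IP replicate 1, at -0.98 with 0.000116. Eif4e2, at -0.27 ± 0.17, and Eif3a and Eif4g3, at 0.23 ± 0.25 and 0.27 ± 0.21, are also called without ES IP replicate 1, at -0.38, 0.47 and 0.48. Eif3g and Eif4a3 (adjusted p = 0.0533 and 0.0529) are called lower with all 9 libraries in 1 fit, DESeq2 and limma-voom. Eif4a1, at 0.42 ± 0.19, is called without ES IP replicate 3, at 0.54 with an adjusted p of 0.0453. In this comparison all 15 neuron markers were called higher and all 19 endothelial markers lower in ES IPs, with 6 of 8 astrocyte, 7 of 7 oligodendrocyte and 5 of 7 microglia markers higher, and the part of that in the factors' differences was not tested.

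The third comparison, ES IP over JL input, shares its libraries with the others and sets RNA of different investigators and lanes side by side. Here 24 of the 55 factors were called higher, beside 26.9% of the 17477 genes tested, and 1 lower, beside 25.3%; together this is 45.5% of the factors beside 52.2% of all genes. The lower calls number 2 without ES IP replicate 1, which adds Eif3j1 at -0.47. Over all genes called, 51.6% were higher, and 40.7% with upper quartile factors, where the factors had 19 higher and 2 lower. The median log2 fold change was 0.44, against 0.00 over all genes, and 31 factors had groups without overlap, beside 64.3% of all genes. Eef1a2, which was called lower in JL IPs over the same inputs, was called higher here. It had 219, 317 and 215.5 CPM in ES IPs, against 124, 151 and 132 CPM in JL inputs, with a log2 fold change of 0.89 ± 0.18. The largest fold changes belonged to Eif4ebp1, at 1.67 ± 0.37, Eif3e, at 1.57 ± 0.13, Eef1d, at 1.45 ± 0.20, Eif2b4, at 1.27 ± 0.15, and Eif6, at 1.25 ± 0.20. Eif2b5 was next, at 1.18 ± 0.14, and 4 of the 5 eIF2B genes were called, without Eif2b3. The call of Eif2b1 ends without input replicate 2 or 3, at adjusted p = 0.0531 and 0.0571, and Eif2b3 is called without ES IP replicate 3, at 0.53 with an adjusted p of 0.0194. Eif4ebp2 was higher by 0.93 ± 0.20 and Eif4a1 by 0.86 ± 0.16.

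Eif1a was the lone factor called lower: it had 86.0, 75.5 and 75.8 CPM in ES IPs, against 116, 123 and 127 CPM in JL inputs, and fell by 0.63 ± 0.11. The paralogs that were low in JL IPs stood near the inputs in ES IPs, with Eif4a2 at -0.07 ± 0.13 and Eif5a2 at -0.18 ± 0.14, and neither passed. Eif4g2, at -0.21 ± 0.12, and Eif4e3, at 0.18 ± 0.15, did not pass here either, although both were more than 2-fold higher in JL IPs; Eif4g2 is called lower with upper quartile factors (-0.36, adjusted p = 0.0453) and DESeq2 (-0.22, adjusted p = 0.0465). Eef1a1 was called at 0.66 ± 0.22 and Eef2 at 0.54 ± 0.15, with adjusted p of 0.0361 and 0.0153. Both calls end when any 1 input is left out, with adjusted p of 0.0899 to 0.113 for Eef1a1 and 0.0523 to 0.0774 for Eef2, and also with upper quartile factors, at adjusted p = 0.0810 and 0.0578. The reverse holds for Eif3a, Eif4g1 and Eif4g3, at 0.25 ± 0.23, 0.29 ± 0.14 and 0.16 ± 0.20, which are called without ES IP replicate 1, at 0.49, 0.40 and 0.38. In this comparison all 19 endothelial markers were called higher, and of the 15 neuron markers 5 higher and 4 lower, the lower ones being Map2, Gad2, Grin1 and Syt1. Of the astrocyte markers 2 were higher and 4 lower, of the 7 oligodendrocyte markers 6 lower and of the 7 microglia markers 3 lower. These marker counts stand beside 26.9% of all tested genes called higher and 25.3% called lower.

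**Figure D5:**
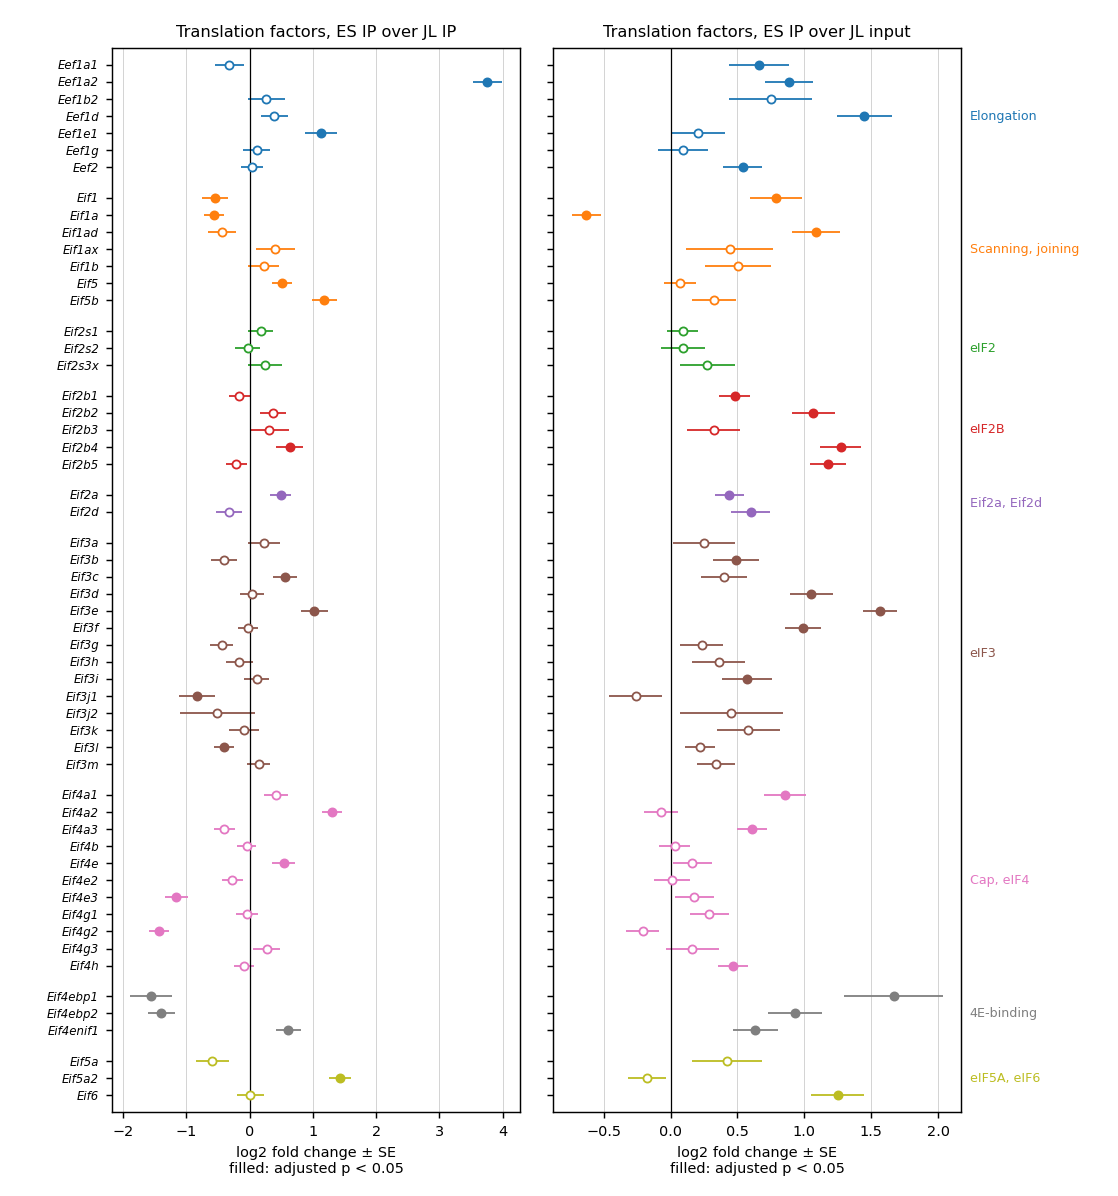
Log2 fold changes with standard errors of the 55 tested factors in ES IP over JL IP (left) and ES IP over JL input (right), arranged by role, with separate scales; filled points have an adjusted p under 0.05. On the left Eef1a2 is at 3.76 and the 4E-binding protein genes at -1.55 and -1.39, and on the right Eif1a, at -0.63, is the only filled point below 0.

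The genes that act around these factors were taken from lists of their regulators and partners. Each count below stands beside the shares of all tested genes called higher and lower. These were 36.7 and 37.4% in JL IP over input, 29.7 and 28.2% in ES IP over JL IP, and 26.9 and 25.3% in ES IP over input. A count near these shares sets no list apart from all genes, and no list was tested as a set. In the list for the eIF2 kinases and the integrated stress response, JL IP over input gave 7 of 14 genes higher and 2 lower. Trib3, a stress-induced pseudokinase, was higher by 5.43 ± 0.47 and Eif2ak2, the kinase of eIF2 that senses double-stranded RNA, by 3.41 ± 0.13. Trib3 had only 9, 5 and 16 counts in JL inputs, so the size of its fold changes over input rests on few counts. Impact, an inhibitor of the eIF2 kinase Gcn2, fell by 1.72 ± 0.08 and Asns, asparagine synthetase, by 1.57 ± 0.15. Of the 14, 2 were higher and 6 lower in ES IP over JL IP, with Impact at 1.95 ± 0.16 and Eif2ak2 at -2.28 ± 0.18. Finally, 5 were higher and 2 lower in ES IP over input, with Trib3 at 3.57 ± 0.48.

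In the list for mTORC1 and eIF4E control, 8 of 18 genes were higher and 6 lower in JL IP over input. Mknk2, a kinase that phosphorylates eIF4E, was higher by 3.31 ± 0.12, and Rps6kb2, an S6 kinase, by 1.33 ± 0.14. Cyfip2, whose product belongs to the WAVE complex, fell by 2.05 ± 0.13 and Mtor itself by 1.09 ± 0.15. Cyfip1 of the same list went the other way from Cyfip2 and was higher by 1.25 ± 0.08. In ES IP over JL IP the list again gave 8 higher and 6 lower, with Cyfip2 at 2.17 ± 0.25, Mknk2 at -1.38 ± 0.17 and Cyfip1 at -1.33 ± 0.17. In ES IP over input it gave 3 higher and none lower, with Mknk2 at 1.85 ± 0.14. Among 11 genes listed for the regulation of elongation, 5 were higher and 1 lower in JL IP over input, led by Eef2kmt, the lysine methyltransferase of eEF2, at 3.16 ± 0.17. The list had 4 higher and 1 lower in ES IP over JL IP, with Eef2kmt at -1.85 ± 0.27, and 5 higher and none lower in ES IP over input, led by Dohh, which completes the hypusine of eIF5A, at 1.42 ± 0.22.

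In the termination list, JL IP over input gave 6 of 8 genes higher and 1 lower; Pelo, a ribosome rescue factor, was higher by 1.10 ± 0.14, whereas Gspt2, a paralog of the termination factor gene Gspt1, fell by 2.69 ± 0.22. Gspt1 itself stood at -0.07 ± 0.09 and did not pass. In ES IP over JL IP 2 of the 8 were higher and none lower, with Gspt2 at 3.38 ± 0.26 and Gspt1 at 0.73 ± 0.16. Of the 8, 6 were higher and none lower in ES IP over input. Of the cytosolic aminoacyl-tRNA synthetases and their partners, 5 of 22 were higher and 11 lower in JL IP over input, with a median of -0.23, led on the low side by Nars, asparaginyl-tRNA synthetase, at -1.03 ± 0.07. In ES IP over JL IP 14 were higher and none lower, with a median of 0.71 and Aars, alanyl-tRNA synthetase, at 2.39 ± 0.17; in ES IP over input 15 were higher and 1 lower. Of the poly(A)-binding proteins and partners, 2 of 6 were higher and 1 lower in JL IP over input, none higher and 2 lower in ES IP over JL IP, where Pabpc1, the main cytoplasmic poly(A)-binding protein gene, fell by 0.80 ± 0.18, and 1 higher and 2 lower in ES IP over input. Of 10 helpers of initiation and reinitiation, 5 were higher and 3 lower, 3 higher and none lower, and 4 higher and 1 lower in the same order of comparisons, with the helicase gene Ddx3x at 1.16 ± 0.16 in JL IP over input. Of 9 mitochondrial translation factors, 4 were higher and 2 lower, 1 higher and 2 lower, and 2 higher and 2 lower.

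Some factors cannot be counted cleanly. Reads that fit several places are as a rule left out of gene counts, and 18 of the 57 factors shared at least 10% of their 50-base windows with transcripts of other genes. The share was 91.9% for Eif3j2, whose near-copy is Eif3j1 (54.8%), 65.3% for Eif4a1, 64.3% for Eef1g, 60.6% for Eef1a1, with 21 other genes, 31.6% for Eif1, 22.0% for Eif3e and 15.6% for Eif4a2, whereas no window of Eef1a2 was shared. Levels of these genes, and shares within their pairs, are therefore uncertain. Exons of 22 factors also overlap those of another gene, the longest being 2151 bases of Eif3d with Gm17638 and 1643 bases of Eif5b with Rev1, both on the opposite strand. Next were Eif3j1, with 1175 bases, Eif4a2, with 811 bases summed over Rfc4, Snord2, Snora81 and others, and Eif4ebp3, with 501 bases. Eif1ad overlaps Banf1 on the opposite strand by 428 bases. Without a stated strand setting, reads of genes on opposite strands cannot be told apart. Reads left out because their place holds more than 1 gene were 2.48 ± 0.05% of uniquely placed reads in ES IPs, 2.09 ± 0.05% in JL IPs and 10.79 ± 0.52% in JL inputs (SD, n = 3 each), and their part in the comparisons with the inputs was not tested. Restricted to the tested factors under 10%, 38 in number, the counts were 23 higher and 5 lower with a median of 0.55 in JL IP over input, 9 and 5 with 0.08 in ES IP over JL IP, and 17 and 1 with 0.45 in ES IP over input. That subset was chosen after the values were seen.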

How the data were processed

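RNA of the cerebral cortex was sequenced in 9 libraries, and the deposited files hold raw counts of reads for each gene, 1 file per library. The authors aligned reads with STAR 2.0.0e to mm10 and counted them with HTSeq, per the submitters' processing notes. The annotation, the strand setting and filters are each not given in the sources used here. HTSeq's summary rows stayed out of library sizes and tests. Reads that fit several places came to 1.13 ± 0.258 per gene count in ES IPs, 1.90 ± 0.132 in JL IPs and 0.626 ± 0.0135 in JL inputs (SD, n = 3), so genes with near-identical copies may be undercounted. Libraries of the same group differed by more than counting error, with a chi-square per degree of freedom of at least 7.72, so none was merged. This does not tell technical from biological repeats. Y-linked Eif2s3y had 601, 0 and 0 counts in JL IPs and 729, 0 and 0 in JL inputs. Replicate 1 of each JL group thus did not repeat the RNA source of replicates 2 and 3. Whether the other libraries are technical or biological repeats is not known.

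The test was edgeR 4.0.16's quasi-likelihood F test, run in R 4.3.3 (filterByExpr, TMM, glmQLFit and glmQLFTest), each fit holding only the 6 libraries compared, with p-values adjusted by Benjamini and Hochberg's method across every tested gene and calls made under 0.05; the procedure was tested on simulated data. Standard errors were obtained from the fold change and F (log2 fold change over the root of F). The 3 comparisons share libraries and are not independent. Lengths are of the longest GENCODE M21 transcript whose coding part is at least 90% of the gene's longest, and shared sequence was counted in windows of 50 bases. Paralog shares were compared by exact permutation tests. DESeq2 1.42.0, limma-voom 3.58.1, other scalings and filters, a replicate block and leaving out each library were tried. The members, roles and lists were chosen with earlier results of these data known. Named members were a fixed set of 18 genes, plus the 5 largest and 5 smallest fold changes among those called in each comparison, and up to 2 per direction in the other lists. Gspt1 and Cyfip1 were added beside Gspt2 and Cyfip2. Replicate numbers were not taken as pairs, since the labels tie them to no animal or day. Same-numbered JL libraries do share a lane, and Eif2s3y was counted only in number 1 of both JL groups, a hint of shared sources. A fit with the replicate number as a block was therefore among the alternatives.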

Additional observations from a re-analysis of the deposited data

Results flagged for a closer look

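In 6 factors both IP groups were called against the shared inputs and the difference between the IP groups was itself called (edgeR, adjusted p under 0.05). The values here are log2 fold changes of ES IP over JL IP. Eef1a2 differed by 3.76, and it was higher than the inputs in the ES IPs and lower in the JL IPs. Eif3e differed by 1.02 and Eif2b4 by 0.64, both further above the inputs in the ES IPs. Eif4ebp1 differed by -1.55, Eif4ebp2 by -1.39 and Eif1 by -0.54, all 3 less far above the inputs in the ES IPs. The differences of Eif1 and Eif2b4 lose their call when single libraries are left out, with adjusted p of up to 0.156 and 0.0823. The groups of 3 were too small to test for a library far from the others.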

How the results depend on the processing

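In JL IP over input, 33 of 41 calls were kept under every alternative, and 34 higher and 7 lower became 32 to 37 and 6 to 7 with 1 library left out. The factors' median was 0.33 with upper quartile factors, 0.32 by library size alone and 0.49 with a filter at a mean of 1 CPM, and 0.55 to 0.62 with 1 library left out. For ES IP over JL IP, 10 of 20 calls were kept; lower calls were 14 with all 9 libraries in 1 fit, and 5 to 16 with 1 library left out, where higher calls were 7 to 13. For ES IP over input, 17 of 25 calls were kept; lower calls were 2 with upper quartile factors, with a filter of 1 count and with DESeq2, and 1 to 2 with 1 library left out, where higher calls were 16 to 31. Without length, Eif5a2's share of its pair differed by -33.0 points in JL IP over input and 24.7 in ES IP over JL IP, and that of Eif4ebp1 by 4.04 in JL IP over input; the change comes from the unequal lengths of the transcripts. With the replicate number as a block, which the labels do not show to pair samples, higher and lower calls were 34 and 7, 12 and 9, and 25 and 1 in the order above. Same-numbered JL IP and input libraries deviated together with r of 0.21, 0.0861 and 0.158, and each JL IP correlated best with the input of its own number, a hint from the data. Same-numbered ES and JL IPs had r of 0.192, -0.0814 and 0.109. The cause of the other changes was not tested. Depth limits Eif4ebp3 and Eif4e1b, which had at most 9 counts, and Eif3j2, at under 1 CPM.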
